A study of Rattus norvegicus with 12 samples.

Results

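The growth hormone and insulin-like growth factor (IGF) axis was followed in cultured fetal rat metatarsals through 10 genes. These were the receptor genes Ghr, Igf1r and Igf2r, the ligand genes Igf1 and Igf2, and the binding protein genes Igfbp2, Igfbp3, Igfbp4, Igfbp5 and Igfbp6. They were taken by symbol from the 30045 gene symbols of the count files, and all 10 were found. RNA sequencing (RNA-seq) had been performed on whole metatarsals of Sprague Dawley rats, dissected on embryonic day 19 and kept for 72 h in culture. The metatarsal is a cartilage rudiment whose growth plate cells, the chondrocytes, lengthen the bone. The groups were dexamethasone + LiCl (1 µM and 10 mM), dexamethasone (1 µM), LiCl (10 mM) and control, with 3 pools of about 20 bones each. Dexamethasone is a synthetic glucocorticoid and LiCl a lithium salt. All groups shared one defined medium, and control and LiCl cultures received ethanol in place of dexamethasone. A pool mixes bones, so n counts pools and not single bones. Levels are in CPM, the count of a gene after scaling of every library to the same total, for pools 1, 2 and 3 in the order of the replicate numbers. CPM is not corrected for transcript length, so levels are compared between groups for 1 gene and not between genes.

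Growth hormone binds its receptor GHR, which works through the kinase JAK2 and the transcription factor STAT5 and is known to induce IGF1 in many tissues. IGF1 and IGF2 both act through the receptor kinase IGF1R, whereas IGF2R takes up IGF2 and delivers it to lysosomes. IGF binding proteins carry the ligands outside cells and restrain or prolong their action, and proteases that cut the binding proteins release the ligand. In the growth plate the axis is known as a main driver of chondrocyte proliferation and hypertrophy, and IGF2 as the ligand of fetal growth.

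Dexamethasone raised Ghr, Igf1 and Igfbp2 and lowered Igfbp4, and LiCl lowered Ghr, Igfbp3, Igfbp4, Igfbp5 and Igfbp6. Each gene was tested with edgeR's quasi-likelihood F-test fitted over 12602 genes and all 12 libraries, and "called" means a Benjamini-Hochberg adjusted p under 0.05 over all these genes, with no minimum fold. All 10 genes were tested. With dexamethasone against control, 3 of 10 genes were higher and 1 was lower, against 5.45% higher and 5.49% lower among all genes tested. With LiCl against control, none was higher and 5 were lower, against 4.71% and 5.9%. The 5 became 3 without control pool 2, 2 without LiCl pool 1 and 1, Igfbp3, without LiCl pool 3. With dexamethasone + LiCl against dexamethasone, none was higher and 3 were lower, against 3.82% and 4.78%. With dexamethasone + LiCl against LiCl, 3 were higher and none was lower, against 3.79% and 3.09%. With dexamethasone + LiCl against control, 4 were higher and 3 were lower, against 10.8% and 11.8%. In these data fewer cells of a type and less RNA per cell cannot be told apart.

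Most of these changes were small. A called gene with more than a 2-fold difference in either direction made up 2.84% of all genes for dexamethasone, 1.58% for LiCl, 1.36% for LiCl added to dexamethasone, 2.01% for dexamethasone added to LiCl and 4.37% for both drugs against control. Igfbp2 was the 1 gene of the 10 past that limit, with dexamethasone against control, dexamethasone added to LiCl and both drugs against control. The median log2 fold change of the 10 genes was 0.20 with dexamethasone and -0.21 with LiCl against control, where the median of all genes was 0.0021 and 9.2e-04. The other receptor and ligand genes, Igf1r, Igf2r and Igf2, were called in at most 1 comparison each.

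**Figure D1:**
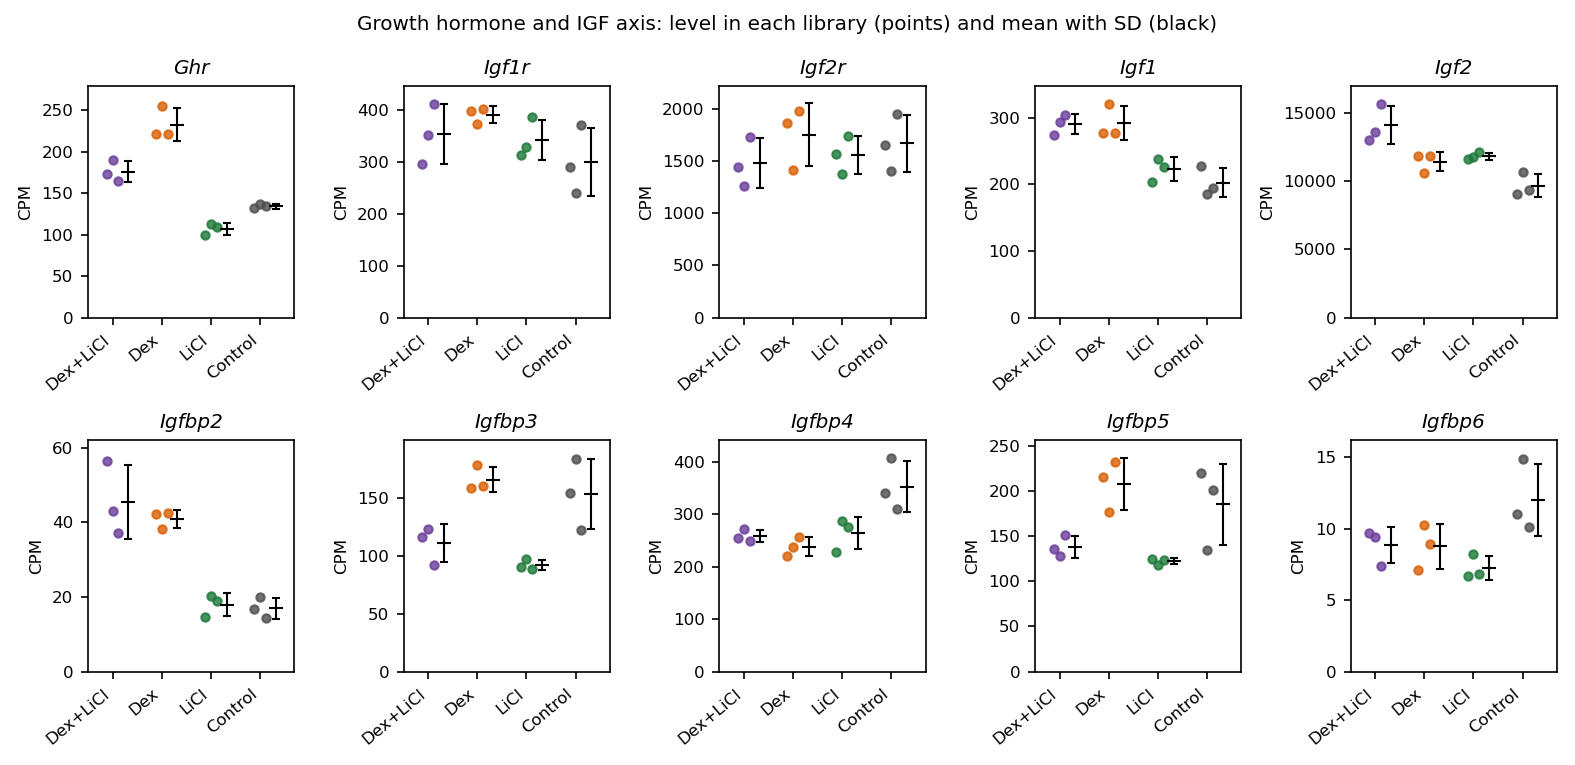
CPM (linear axes from 0) of the 10 genes in each library, with the 3 pools of dexamethasone + LiCl (Dex+LiCl), dexamethasone (Dex), LiCl and control as points and the mean with its SD in black. The 3 pools of each dexamethasone group stand above all LiCl and control pools for Ghr, Igf1 and Igfbp2, the 3 pools of each LiCl group stand below all dexamethasone pools for Igfbp3 and Igfbp5, and the pools of Igf2r overlap in all groups.

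**Figure D2:**
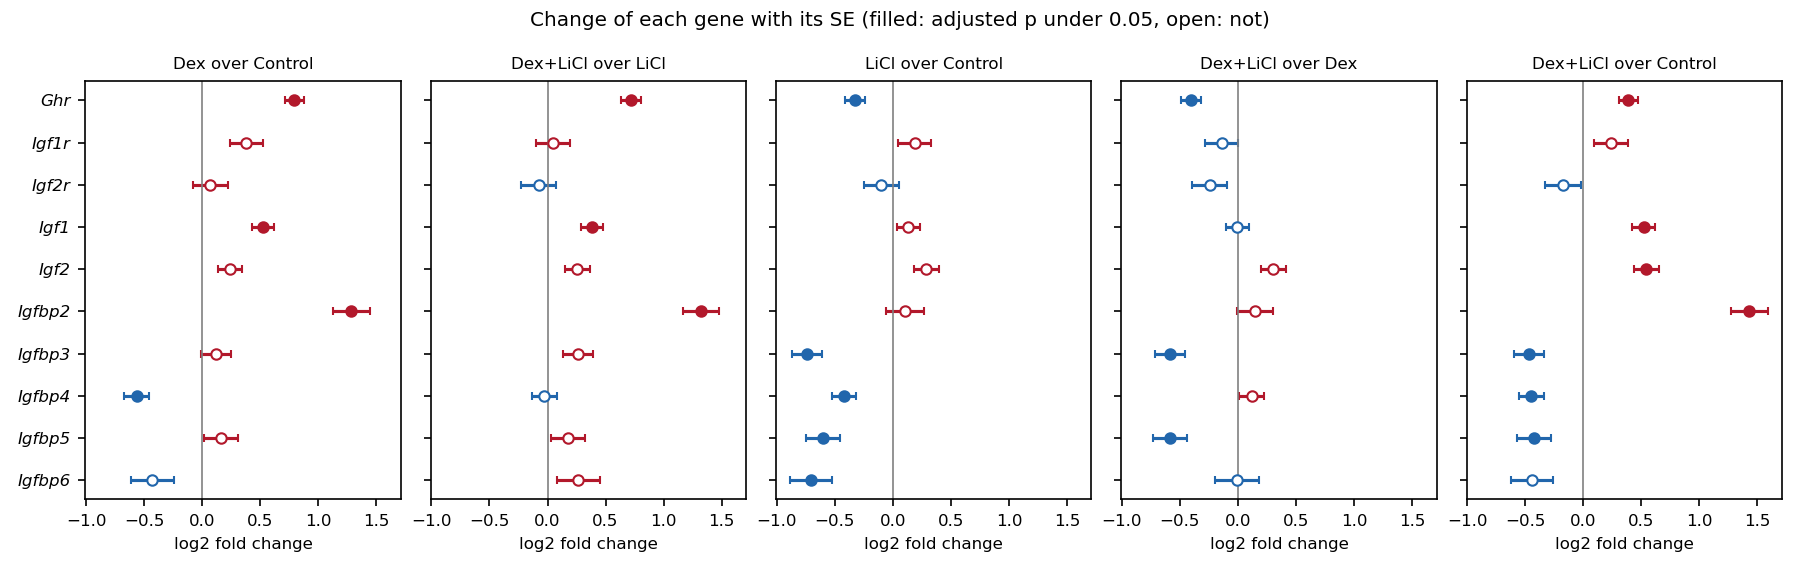
Log2 fold change of each gene with its standard error (SE) in the 5 comparisons of groups, red when higher and blue when lower in the first-named group, filled when the adjusted p was under 0.05. Filled points with a rise are 3, 3, 0, 0 and 4 and filled points with a fall 1, 0, 5, 3 and 3 across the panels from left to right.

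The growth hormone receptor gene was the 1 gene of the 10 that was called in all 5 comparisons, and the drugs moved it in opposite directions. Ghr was at 173, 189.7 and 165 CPM in the dexamethasone + LiCl pools, 221, 255 and 222 CPM in the dexamethasone pools, 98.9, 113 and 109 CPM in the LiCl pools and 131, 137 and 134 CPM in the control pools. No group overlapped another, in the order dexamethasone, both drugs, control and LiCl from high to low. Ghr was higher with dexamethasone than in control, at 232 ± 19.8 against 134 ± 2.92 CPM (SD, n = 3 pools each), or 0.79 on the log2 scale (SE 0.084, adjusted p = 1.1e-05, edgeR). It was lower with LiCl, at 107 ± 7.11 CPM, a change of -0.33 (SE 0.084, adjusted p = 0.0213, edgeR). That second call was lost without LiCl pool 1 (adjusted p = 0.108) or LiCl pool 3 (0.0614). LiCl added to dexamethasone lowered Ghr as well (-0.40, SE 0.084, adjusted p = 0.00773), and dexamethasone added to LiCl raised it (0.72, SE 0.085, adjusted p = 4.3e-05). With both drugs Ghr was above control, at 176 ± 12.8 CPM, by 0.39 (SE 0.084, adjusted p = 0.00350). The test of whether the effects of the drugs depended on each other, the interaction, gave -0.077 (SE 0.12, adjusted p = 0.905).

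Of the genes that carry the growth hormone signal, Jak2 was the 1 called with dexamethasone against control among 9 tested of 11 listed. The list held the receptor's kinase, the STAT factors it uses, the SOCS and CISH feedback inhibitors, and the partners SH2B1 and SHP2. Jak2 was at 139, 139 and 133 CPM in the dexamethasone + LiCl pools, 185, 197 and 178 CPM in the dexamethasone pools, 85.2, 85.6 and 79.2 CPM in the LiCl pools and 93.3, 79.7 and 89.2 CPM in the control pools. The dexamethasone pools were all above the pools with both drugs, which were all above LiCl and control, and these last groups overlapped. Jak2 rose by 1.09 on the log2 scale with dexamethasone (SE 0.078, adjusted p = 1.4e-07, edgeR) and by 0.72 with dexamethasone added to LiCl (adjusted p = 1.8e-05). LiCl alone gave -0.071 (adjusted p = 0.600), and LiCl added to dexamethasone lowered it (-0.45, SE 0.077, adjusted p = 0.00203). Of the 9 genes, 1 higher with dexamethasone stood beside 5.45% of all genes and 0 called with LiCl beside 4.71% higher and 5.9% lower. With the replicate number as a block Stat5a was lower with LiCl (-0.31, adjusted p = 0.0383, and 0.103 without it) and with LiCl added to dexamethasone (-0.38, 0.0257 and 0.0746 without it). With both drugs against control Jak2 was higher (0.64, adjusted p = 2.2e-05), and Stat5a was lower (-0.58, adjusted p = 0.00256). Stat5b, the other STAT5 gene, was at 53.3 ± 1.29 CPM with both drugs and 53.4 ± 2.64 CPM in control. The feedback inhibitor genes Socs2 and Cish, known targets of STAT5, stayed under the count minimum of 60 in 2 libraries and were not tested. Gh1, which encodes growth hormone itself, had 0 counts in each of the 12 libraries, which allows up to 3 counts in a library.

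Neither IGF receptor gene was called in any comparison. Igf1r was at 296, 352 and 412 CPM in the dexamethasone + LiCl pools, 397, 372 and 402 CPM in the dexamethasone pools, 313, 328 and 385 CPM in the LiCl pools and 289, 239 and 369.7 CPM in the control pools. The dexamethasone pools lay above all control pools, but control pool 3 was close to them, and all other pairs of groups overlapped. The log2 fold change with dexamethasone was 0.38 (SE 0.14, adjusted p = 0.112, edgeR), and it passed without control pool 3 (adjusted p = 0.0157) and with the replicate number as a block (0.0147). The same-numbered pools of these groups did not all deviate together, with correlations of 0.0675, 0.0135 and 0.140. With both drugs against control Igf1r gave 0.24 (adjusted p = 0.257), and 0.0425 without control pool 3. LiCl alone gave 0.19 (SE 0.14, adjusted p = 0.427).

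Igf2r differed more between the replicate numbers than between the groups. Its levels were 1439, 1261 and 1734 CPM in the dexamethasone + LiCl pools, 1862, 1412 and 1982 CPM in the dexamethasone pools, 1569, 1371 and 1736 CPM in the LiCl pools and 1652, 1406 and 1950.2 CPM in the control pools. Pool 2 was the lowest and pool 3 the highest in each of the 4 groups, and the groups overlapped throughout. No comparison was called, and the largest difference was LiCl added to dexamethasone, at -0.24 (SE 0.15, adjusted p = 0.372, edgeR). With the replicate number as a block that comparison passed (adjusted p = 0.0413). Igfbp5 also had its lowest level in pool 2 of all 4 groups, a pattern shared by 845 of the 12602 genes tested (6.71%). Ghr and Igfbp3 had their highest level in pool 2 of all 4 groups, and Igf1r in pool 3 of all 4. The labels do not say what a replicate number stands for. The study describes repeated experiments, each with bones allotted at random to every treatment, and elsewhere a pool as the bones of a single rat, so that pools of the same number may share an experiment or a rat. In the dexamethasone group Col2a1, the main cartilage collagen gene, was at 47888, 24428 and 47173 CPM, so that its pool 2 was low as well, whereas in control it was at 42351, 53393 and 47785 CPM with pool 2 the highest. The part of cartilage content in these levels was not tested.

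**Figure D3:**
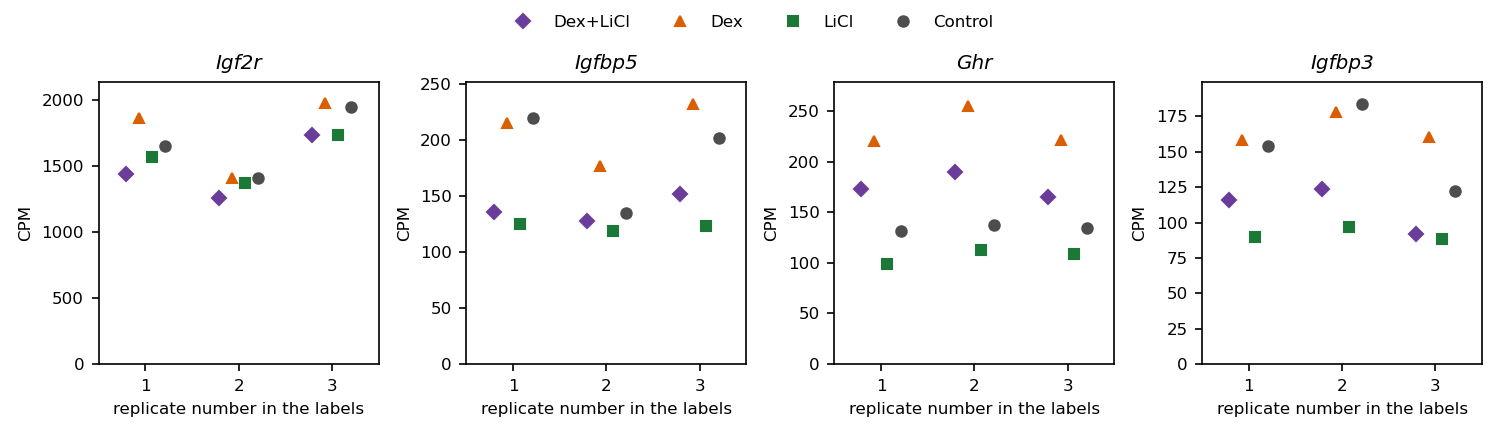
CPM (linear axes from 0) of Igf2r, Igfbp5, Ghr and Igfbp3 by the replicate number in the labels, with 1 symbol per group (diamond dexamethasone + LiCl, triangle dexamethasone, square LiCl, circle control). Number 2 is the lowest of its group in all 4 groups for Igf2r and Igfbp5 and the highest in all 4 for Ghr and Igfbp3.

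Igf1, the ligand that growth hormone induces, was higher wherever dexamethasone was present. Its levels were 275, 293 and 305 CPM in the dexamethasone + LiCl pools, 278, 321 and 277 CPM in the dexamethasone pools, 203, 238 and 226 CPM in the LiCl pools and 228, 186 and 194 CPM in the control pools. All 6 pools with dexamethasone stood above all 6 without it, and within each of these sets the groups overlapped. Against control, Igf1 rose by 0.53 on the log2 scale with dexamethasone (1.44-fold, SE 0.10, adjusted p = 0.00182, edgeR) and by 0.52 with both drugs (SE 0.10, adjusted p = 0.00107). Against LiCl, both drugs gave 0.39 (SE 0.10, adjusted p = 0.0218). That call was lost without LiCl pool 1 (0.119), LiCl pool 3 (0.0704), dexamethasone + LiCl pool 2 (0.0733) or dexamethasone + LiCl pool 3 (0.0923), and with library totals in place of scaled totals (0.0513). LiCl gave 0.13 alone (SE 0.10, adjusted p = 0.404) and -0.0049 when added to dexamethasone (SE 0.10, adjusted p = 0.985), and neither was called. Macrophages are another known source of Igf1 in tissue. The summed CPM of 8 macrophage marker genes was 135 to 164 with both drugs, 187 to 210 with dexamethasone, 73.0 to 76.6 with LiCl and 83.7 to 124 in control. Of these 8 markers 5 were higher and 1 was lower with dexamethasone than in control, beside 5.45% and 5.49% of all genes. They did not move together. Cd163 was at 15.3, 17.8 and 12.4 CPM with dexamethasone and 0.0448, 0 and 0 CPM in control, whereas Cd68 was at 19.2, 17.4 and 14.7 CPM against 26.3, 23.4 and 23.2 CPM. Csf1r, the receptor gene that defines the lineage, was at 18.5, 24.7 and 19.3 CPM with dexamethasone and 29.5, 19.5 and 20.4 CPM in control. A ninth listed marker, Adgre1, was not analysed here. The part of macrophages in the level of Igf1 was not tested.

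Igf2, the fetal ligand, was called in 1 comparison, both drugs against control, in which it was 1.46-fold higher. It was at 13074, 13641 and 15704 CPM in the dexamethasone + LiCl pools, 11845, 10624 and 11901 CPM in the dexamethasone pools, 11629, 11758 and 12140.4 CPM in the LiCl pools and 9053, 10657 and 9381 CPM in the control pools. The pools with both drugs were above all other pools, the LiCl pools were above all control pools, and dexamethasone overlapped with control and with LiCl. The difference of both drugs from control was 0.54 (SE 0.11, adjusted p = 0.00161, edgeR). Each single step was smaller and not called, at 0.24 with dexamethasone (adjusted p = 0.176), 0.29 with LiCl (0.0982), 0.30 with LiCl added to dexamethasone (0.0923) and 0.26 with dexamethasone added to LiCl (0.217). DESeq2 gave adjusted p-values of 0.0150, 0.0104 and 0.0486 for the last 3 of these. Igf2 made up 1.33 to 1.51% of all counts with both drugs, 1.09 to 1.15% with dexamethasone, 1.18 to 1.22% with LiCl and 0.920 to 1.07% in control. Its rank among all genes by count was 3 in the pools with both drugs and 4 or 5 with dexamethasone. The rank was 4 with LiCl and 5 or 6 in control, and ranks by count are not corrected for transcript length. Skeletal muscle is another fetal tissue known for Igf2. The summed CPM of 10 muscle marker genes was 174 to 213 with both drugs, 56.3 to 84.3 with dexamethasone, 65.2 to 79.5 with LiCl and 28.4 to 29.2 in control. All 7 tested markers were higher with both drugs than in control, beside 10.8% of all genes. Myod1, which defines the muscle lineage, was at 0.435, 0.727 and 0.407 CPM with both drugs, 0, 0 and 0 CPM with dexamethasone, 1.21, 0.522 and 0.289 CPM with LiCl and 0.179, 0.185 and 0 CPM in control. Myod1 had at most 17 counts in a library, stayed under the count minimum and was not tested. The part of muscle in the level of Igf2 was not tested.

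H19, a non-coding RNA gene near Igf2 in the same imprinted cluster on chromosome 1, was called in more comparisons than Igf2. It was at 23784, 30886 and 29433 CPM in the dexamethasone + LiCl pools, 23677, 25323 and 25245 CPM in the dexamethasone pools, 17778, 20667 and 19647 CPM in the LiCl pools and 15707, 17055 and 17769 CPM in the control pools. All 6 pools with dexamethasone stood above all 6 without it. H19 rose by 0.56 with dexamethasone (SE 0.12, adjusted p = 0.00522, edgeR), by 0.74 with both drugs against control (adjusted p = 3.1e-04) and by 0.53 with dexamethasone added to LiCl (adjusted p = 0.00931). The last was lost without LiCl pool 1 (0.0690) or dexamethasone + LiCl pool 2. In a list of 12 other ligands, carriers and IGF2 regulators, 7 were tested. Of these, 1 was higher with dexamethasone, 1 with dexamethasone added to LiCl and 2 with both drugs against control, beside 5.45%, 3.79% and 10.8% of all genes. None was lower there, beside 5.49%, 3.09% and 11.8%. None was called with LiCl against control, beside 4.71% higher and 5.9% lower, or with LiCl added to dexamethasone, beside 3.82% and 4.78%. With dexamethasone against control and with dexamethasone added to LiCl, H19 was the 1 gene called, and with both drugs against control Igf2bp1, which encodes an IGF2 mRNA-binding protein, was also higher (0.35, adjusted p = 0.0178), a call lost without control pool 2 or dexamethasone + LiCl pool 3 (0.0578). With the replicate number as a block, Igfbp7 of this list was lower with dexamethasone against control (-0.37, adjusted p = 0.0282, and 0.190 without it, edgeR). Igfbp1, Igfals (the acid-labile subunit of the serum IGF complex), Ghrhr and Igfbpl1 had at most 10 counts in any library.

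Igfbp2, a binding protein gene that sits beside Igfbp5 on chromosome 9, had the largest log2 fold change of the 10 genes in each of the 3 comparisons that add dexamethasone. It was at 56.5, 43.0 and 37.1 CPM in the dexamethasone + LiCl pools, 42.1, 38.3 and 42.4 CPM in the dexamethasone pools, 14.6, 20.3 and 18.9 CPM in the LiCl pools and 16.8, 19.9 and 14.2 CPM in the control pools. All 6 pools with dexamethasone were above all 6 without it. Igfbp2 was 2.44-fold higher with dexamethasone than in control, 1.28 on the log2 scale (SE 0.16, adjusted p = 5.4e-05, edgeR). Dexamethasone added to LiCl gave 1.32 (SE 0.16, adjusted p = 4.5e-05) and both drugs against control 1.43 (SE 0.16, adjusted p = 1.0e-05). These 3 calls held with each of the 12 libraries left out in turn. LiCl gave 0.10 (SE 0.16, adjusted p = 0.726) alone and 0.14 (SE 0.15, adjusted p = 0.638) when added to dexamethasone.

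The start regions of Ghr, Igf1 and Igfbp2, the 3 genes that were higher with dexamethasone both with and without LiCl, are shown for the hexamer that the glucocorticoid receptor binds in pairs. The motif searched was AGAACA or, on the other strand, TGTTCT, in the 250 bases before and the 50 bases after each start in RefSeq (rat build GRCr8). A match stood in 3 of the 10 genes, Ghr, Igf1 and Igfbp6, and in 20.7% of all 33469 windows of this length. The hexamer is in capitals, and its leftmost base lies 93 bases before the start in Ghr (chr2:54432026-54432325, minus strand) and 55 bases before it in Igf1 (chr7:24172282-24172581, plus strand). The window of Igfbp2 (chr9:81864561-81864860, plus strand) holds none and stands in lower case throughout.
Ghr: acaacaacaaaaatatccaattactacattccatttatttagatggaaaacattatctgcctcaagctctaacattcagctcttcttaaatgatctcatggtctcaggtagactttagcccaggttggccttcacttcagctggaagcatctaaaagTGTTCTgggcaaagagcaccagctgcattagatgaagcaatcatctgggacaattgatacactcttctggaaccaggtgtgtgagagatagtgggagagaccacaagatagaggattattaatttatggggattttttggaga
Igf1: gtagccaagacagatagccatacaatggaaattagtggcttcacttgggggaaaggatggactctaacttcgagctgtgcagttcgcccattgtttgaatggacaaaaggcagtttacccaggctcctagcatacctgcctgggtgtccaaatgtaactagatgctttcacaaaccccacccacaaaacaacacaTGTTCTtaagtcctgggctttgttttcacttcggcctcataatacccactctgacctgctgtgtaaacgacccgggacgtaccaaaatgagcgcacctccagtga
Igfbp2: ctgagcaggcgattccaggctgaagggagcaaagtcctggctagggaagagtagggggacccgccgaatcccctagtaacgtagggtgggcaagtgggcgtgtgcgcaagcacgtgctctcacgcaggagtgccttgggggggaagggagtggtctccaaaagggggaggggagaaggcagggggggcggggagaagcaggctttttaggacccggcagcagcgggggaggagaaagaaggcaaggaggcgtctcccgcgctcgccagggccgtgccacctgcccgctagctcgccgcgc
Igfbp6, whose hexamer lies 236 bases before its start, was not called with dexamethasone. The core of the TCF/LEF element through which the β-catenin pathway acts, CTTTGA or TCAAAG, was in the windows of 0 of the 10 genes and in 16.1% of all windows. The FOXO element GTAAACA or TGTTTAC was in that of Igfbp6 and in 3.78% of all. A match describes letters and not binding.

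Igfbp3 and Igfbp5, whose proteins bind both IGFs and also attach to cell surfaces and matrix, were lower with LiCl and differed little with dexamethasone. Igfbp3 was at 116, 123 and 92.2 CPM in the dexamethasone + LiCl pools, 158, 178 and 160.4 CPM in the dexamethasone pools, 90.0, 96.7 and 88.7 CPM in the LiCl pools and 154, 183 and 123 CPM in the control pools. The LiCl pools were below all dexamethasone and control pools, and the pools with both drugs were below all dexamethasone pools but overlapped with control. Igfbp3 fell with LiCl, by 0.74 on the log2 scale (SE 0.13, adjusted p = 0.00189, edgeR), and this call held with each library left out. LiCl added to dexamethasone gave -0.59 (SE 0.13, adjusted p = 0.0117, and 0.0595 without dexamethasone + LiCl pool 3). Both drugs against control gave -0.47 (SE 0.13, adjusted p = 0.0164), lost without control pool 2 (0.0637) or dexamethasone + LiCl pool 3 (0.0805), and in a fit of these groups alone (0.0514). Dexamethasone gave 0.12 (SE 0.13, adjusted p = 0.630) alone and 0.27 (SE 0.13, adjusted p = 0.333) when added to LiCl.

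Igfbp5 was at 136, 128 and 152 CPM in the dexamethasone + LiCl pools, 216, 177 and 232 CPM in the dexamethasone pools, 125, 119 and 124 CPM in the LiCl pools and 220.1, 135 and 202 CPM in the control pools. The LiCl pools were below all dexamethasone and control pools, with control pool 2 close to them, and the pools with both drugs were below all dexamethasone pools and overlapped with control. Igfbp5 fell by 0.60 with LiCl (SE 0.14, adjusted p = 0.0152, edgeR) and by 0.59 with LiCl added to dexamethasone (SE 0.15, adjusted p = 0.0214). The first call was lost without control pool 1 (0.0675), LiCl pool 2 (0.0587) or LiCl pool 3 (0.0548). The second was lost without dexamethasone pool 1 (0.0721), dexamethasone pool 3 (0.0934), dexamethasone + LiCl pool 1 (0.0761) or dexamethasone + LiCl pool 2 (0.0859). Both drugs against control gave -0.42 (SE 0.14, adjusted p = 0.0471), a call that passed in 3 of the 12 fits with 1 library left out and reached 0.201 without control pool 1. Dexamethasone gave 0.16 (SE 0.14, adjusted p = 0.536) alone and 0.18 (SE 0.15, adjusted p = 0.654) when added to LiCl.

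Igfbp4, which encodes a binding protein known to inhibit IGF action until it is cut, was lower with either drug and with both. It was at 255, 272 and 249.7 CPM in the dexamethasone + LiCl pools, 221, 237 and 256 CPM in the dexamethasone pools, 229, 287 and 275 CPM in the LiCl pools and 341, 407 and 311 CPM in the control pools. All control pools were above all 9 treated pools, and the treated groups overlapped with each other. Igfbp4 fell by 0.57 on the log2 scale with dexamethasone (SE 0.11, adjusted p = 0.00240, edgeR), by 0.42 with LiCl (SE 0.11, adjusted p = 0.0208) and by 0.45 with both drugs (SE 0.11, adjusted p = 0.00723). The LiCl call was lost without control pool 2 (0.0665), LiCl pool 1 (0.107) or LiCl pool 3 (0.0522), and in a fit of these groups alone (0.0555). Adding LiCl to dexamethasone gave 0.12 (SE 0.11, adjusted p = 0.567), and adding dexamethasone to LiCl gave -0.027 (SE 0.11, adjusted p = 0.956). The interaction of the drugs was 0.54 (SE 0.15), with an unadjusted p of 0.00295 from edgeR that did not pass over all genes (adjusted p = 0.614).

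Igfbp6, whose protein prefers IGF2 as its ligand, had the lowest counts of the 10 genes, with 69 in its lowest library. It was at 9.68, 9.45 and 7.38 CPM in the dexamethasone + LiCl pools, 7.11, 10.3 and 8.92 CPM in the dexamethasone pools, 6.69, 8.25 and 6.85 CPM in the LiCl pools and 11.0, 14.9 and 10.1 CPM in the control pools. The LiCl pools and the pools with both drugs lay below all control pools, and dexamethasone overlapped with each other group. Igfbp6 fell by 0.70 with LiCl (SE 0.18, adjusted p = 0.0196, edgeR), a call lost without control pool 2 (0.0682), LiCl pool 1 (0.0752) or LiCl pool 3 (0.0823). It was not called with dexamethasone (-0.43, SE 0.18, adjusted p = 0.162) or with both drugs against control (-0.44, SE 0.18, adjusted p = 0.0961), and the second of these passed with the replicate number as a block (0.0331).

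Within the binding protein counts, the share of Igfbp2 differed from control in all treated groups and that of Igfbp4 with dexamethasone alone. The summed CPM of Igfbp2 to Igfbp6 was 562 ± 21.0 with both drugs, 662 ± 33.3 with dexamethasone, 503 ± 33.8 with LiCl and 721 ± 53.6 in control (SD, n = 3 pools each). The control pools were at 660 to 760 CPM and overlapped with dexamethasone, at 641 to 700 CPM, and both groups stood above all pools with both drugs (538 to 575 CPM) and with LiCl (465 to 531 CPM). Igfbp4 took 46.0 ± 1.40% of these counts with both drugs, 36.0 ± 1.46% with dexamethasone, 52.3 ± 2.67% with LiCl and 48.9 ± 4.14% in control. Igfbp2 took 8.07 ± 1.57% with both drugs, 6.19 ± 0.305% with dexamethasone, 3.55 ± 0.367% with LiCl and 2.34 ± 0.240% in control. With LiCl and with both drugs the Igfbp4 share overlapped with control. The shares of Igfbp3, Igfbp5 and Igfbp6 overlapped with control in each treated group. These shares were not tested and are not corrected for transcript length.

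Whether each drug acted differently in the presence of the other was asked with the interaction, for which none of the 10 genes was called, against 0% of all genes higher and 0.00794% lower (1 gene). At an unadjusted p under 0.05 edgeR had 2 of the 10 genes, Igfbp4 and Igfbp6, and 704 of all genes, and DESeq2 called 0 of the 10. Igfbp6 had an interaction of 0.69 (SE 0.26, unadjusted p = 0.0177, adjusted p = 0.809, edgeR). For Ghr, Igf1 and Igfbp2 the effect of dexamethasone was 0.72, 0.39 and 1.32 with LiCl, and 0.79, 0.53 and 1.28 without it. For Ghr, Igfbp3 and Igfbp5 the effect of LiCl was -0.40, -0.59 and -0.59 with dexamethasone, and -0.33, -0.74 and -0.60 without it. The SE of these interactions was 0.12 to 0.22, and a p that misses the threshold does not show that the effects were equal.

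**Figure D4:**
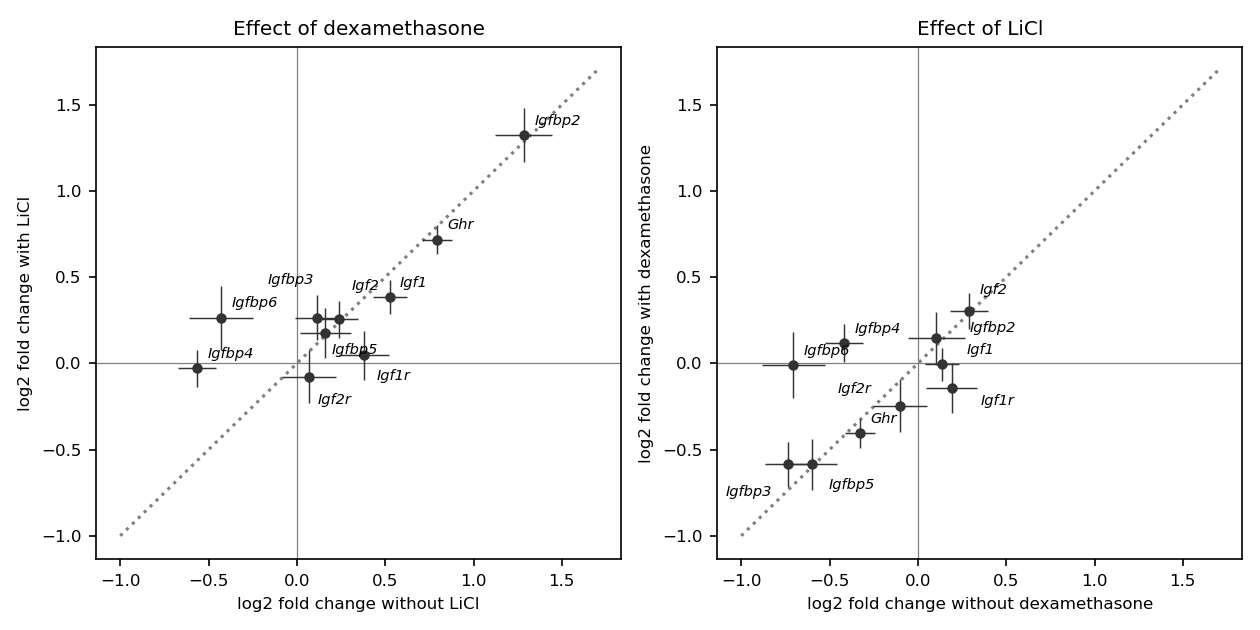
Log2 fold change of the 10 genes for dexamethasone (left) and LiCl (right), without the other drug on the x axis and with it on the y axis, with SE bars and a dotted line where both are equal. Ghr, Igf1 and Igfbp2 lie to the upper right for dexamethasone, Ghr, Igfbp3 and Igfbp5 to the lower left for LiCl, and Igfbp4 and Igfbp6 are negative on the x axis of both panels and lie above the dotted line.

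Among the tested genes that cut the IGF binding proteins, or restrain those proteases, Htra1 was called in more comparisons than any other. Of 8 listed, 6 were tested. Htra1, which encodes a secreted serine protease that cuts IGFBP5 among other substrates, was at 79.8, 81.1 and 80.7 CPM in the dexamethasone + LiCl pools, 70.8, 65.8 and 72.6 CPM in the dexamethasone pools, 119.6, 113 and 115 CPM in the LiCl pools and 149, 178 and 130.4 CPM in the control pools. No group overlapped another, with control highest and dexamethasone lowest. Htra1 fell by 1.13 with dexamethasone (SE 0.10, adjusted p = 1.1e-06, edgeR), by 0.52 with dexamethasone added to LiCl (adjusted p = 0.00235) and by 0.92 with both drugs against control (adjusted p = 5.2e-06). It also fell by 0.39 with LiCl (adjusted p = 0.0146), a call lost without LiCl pool 2 or LiCl pool 3 (0.0595). Adam12, the gene of a protease that cuts IGFBP3 and IGFBP5, was at 70.9, 65.3 and 85.0 CPM with both drugs, 129.6, 93.2 and 150.4 CPM with dexamethasone, 59.6, 61.0 and 59.2 CPM with LiCl and 111, 80.0 and 100.2 CPM in control. The LiCl pools were below all control pools and the pools with both drugs below all dexamethasone pools, with log2 fold changes of -0.70 (SE 0.15, adjusted p = 0.00795) and -0.75 (SE 0.15, adjusted p = 0.00705). Both calls held with each library left out.

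The pregnancy-associated plasma protein A gene Pappa, whose product cuts IGFBP4, was at 23.1, 31.3 and 28.9 CPM with both drugs, 50.6, 59.8 and 55.2 CPM with dexamethasone, 27.2, 26.8 and 25.9 CPM with LiCl and 40.3, 15.1 and 40.9 CPM in control. Control pool 2 stood far below the other controls, and the dexamethasone pools stood above all others. Pappa was not called against control (0.0539 with dexamethasone, 0.457 with LiCl and 0.542 with both drugs). Without control pool 2 all 3 passed, at 0.44 with dexamethasone (adjusted p = 0.0160), -0.61 with LiCl (0.00279) and -0.54 with both drugs (0.00257). LiCl added to dexamethasone changed Pappa by -0.99 (SE 0.24, adjusted p = 0.0209, edgeR), a call lost without dexamethasone pool 3, dexamethasone + LiCl pool 1 (0.0900) or dexamethasone + LiCl pool 3. Stc2, the stanniocalcin gene whose product inhibits that protease, was at 53.5 ± 16.7 CPM with both drugs, 49.5 ± 6.36 CPM with dexamethasone, 31.3 ± 9.39 CPM with LiCl and 28.6 ± 5.56 CPM in control. It rose by 0.79 with dexamethasone (adjusted p = 0.0412), a call that passed in 6 of 12 fits with 1 library left out and reached 0.129 without control pool 1. With both drugs against control it rose by 0.92 (adjusted p = 0.00994), and 0.0501 without dexamethasone + LiCl pool 2. The serine protease gene Htra3 was higher with both drugs, by 0.69 against control (adjusted p = 0.00609) and by 0.62 against dexamethasone (adjusted p = 0.0293, passing in 8 of 12 such fits and at 0.121 without dexamethasone + LiCl pool 2). Stc1 was lower with both drugs against control (-0.55, adjusted p = 0.0234), also in 8 of 12 fits and at 0.107 without dexamethasone + LiCl pool 1. Counted together, the 6 genes had 1 higher and 1 lower with dexamethasone, 0 and 2 with LiCl, 1 and 2 with LiCl added to dexamethasone, 0 and 1 with dexamethasone added to LiCl, and 2 and 2 with both drugs against control. The shares over all genes, higher and lower, were 5.45% and 5.49%, 4.71% and 5.9%, 3.82% and 4.78%, 3.79% and 3.09%, and 10.8% and 11.8% for the same comparisons. Without control pool 2 the lower genes numbered 3 with LiCl and 4 with both drugs against control, with Pappa in both and Adam12 (0.0236) in the second. With the replicate number as a block, Stc2 (0.77, adjusted p = 0.00134) and Htra3 (0.47, 0.0200) were higher with dexamethasone added to LiCl and Adam12 was lower with both drugs against control (-0.40, 0.0187), where the fit without it gave 0.0580, 0.101 and 0.0739.

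Of the receptor relatives, adaptors and kinases downstream of IGF1R, 25 of 27 listed genes were tested, and 4 were higher and 2 lower with dexamethasone than in control, beside 5.45% and 5.49% of all genes. Pik3r1, a regulatory subunit of the kinase PI3K, was at 240.1, 230.0 and 241 CPM with both drugs, 276, 256 and 269 CPM with dexamethasone, 124, 127 and 122 CPM with LiCl and 108, 94.6 and 105 CPM in control, with no overlap between any groups. It rose by 1.38 with dexamethasone (SE 0.074, adjusted p = 6.1e-09, edgeR), by 0.93 with dexamethasone added to LiCl (adjusted p = 6.4e-07) and by 1.21 with both drugs against control (adjusted p = 2.4e-08). The smaller rise with LiCl, of 0.28 (adjusted p = 0.0262), was lost without control pool 2 or without any single LiCl pool, at up to 0.0938 without LiCl pool 2. Foxo3, a transcription factor that AKT holds out of the nucleus, was at 107 ± 8.74 CPM with both drugs, 140.3 ± 13.4 CPM with dexamethasone, 66.8 ± 4.83 CPM with LiCl and 65.9 ± 13.7 CPM in control. Its log2 fold change was 1.08 with dexamethasone (SE 0.13, adjusted p = 3.0e-05), 0.68 with dexamethasone added to LiCl (adjusted p = 0.00276) and 0.69 with both drugs against control (adjusted p = 9.9e-04).

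Insr, the gene of the insulin receptor, a close relative of IGF1R, also rose with dexamethasone (0.56, SE 0.10, adjusted p = 0.00119, edgeR). Irs2, an adaptor of both receptors, rose by 0.39 (adjusted p = 0.0221), a call that passed in 8 of 12 fits with 1 library left out and was lost without control pool 1, control pool 2, dexamethasone pool 1 (0.106) or dexamethasone pool 3. The kinase gene Akt1 was lower with dexamethasone (-0.35, adjusted p = 0.0187, lost without control pool 2 or without dexamethasone pool 2, at 0.0778) and with both drugs against control (-0.44, adjusted p = 0.00224). The inhibitory adaptor gene Grb14 was lower with dexamethasone (-0.68, adjusted p = 0.0173, and 0.0929 without dexamethasone pool 2). LiCl against control had 1 of the 25 genes higher, Pik3r1, and 1 lower, beside 4.71% and 5.9% of all genes. The lower one was Eif4ebp1 (-0.44, adjusted p = 0.0159), the gene of a translation inhibitor, whose call was lost without LiCl pool 1 (0.0749) or LiCl pool 2. With LiCl added to dexamethasone none of the 25 was called, with 3.82% higher and 4.78% lower among all genes. Insr (-0.31, adjusted p = 0.0635) and Foxo3 (-0.39, 0.0701) were lower there with the replicate number as a block (0.0165 and 0.0174) and without control pool 2 (0.0182 and 0.00940). With dexamethasone added to LiCl 2 were higher and none lower, beside 3.79% and 3.09%, and the block added rises of Insr (0.0267), Irs2 (0.0249) and Akt2 (0.0430). Without control pool 2 the same 3 rises passed (0.0301, 0.0162 and 0.0396) and Akt1 was lower (0.0421), while with LiCl against control Pik3r1 was lost (0.0609) and a fall of Irs2 was added (0.0467). With both drugs against control 2 were higher and 3 lower, near the 10.8% and 11.8% of all genes, and with the block 3 and 5. The 3 lower genes were Akt1, Pik3cb (-0.90, adjusted p = 0.00804, and 0.0581 without dexamethasone + LiCl pool 3) and Shc1 (-0.26, adjusted p = 0.0403). The Shc1 call passed in 5 of 12 fits with 1 library left out. The block added Insr (0.25, 0.0242), Grb14 (-0.47, 0.0189) and Pik3r2 (-0.25, 0.0259) to both drugs against control, and Akt2 (-0.24, 0.0355) to the lower genes with LiCl.

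**Figure D5:**
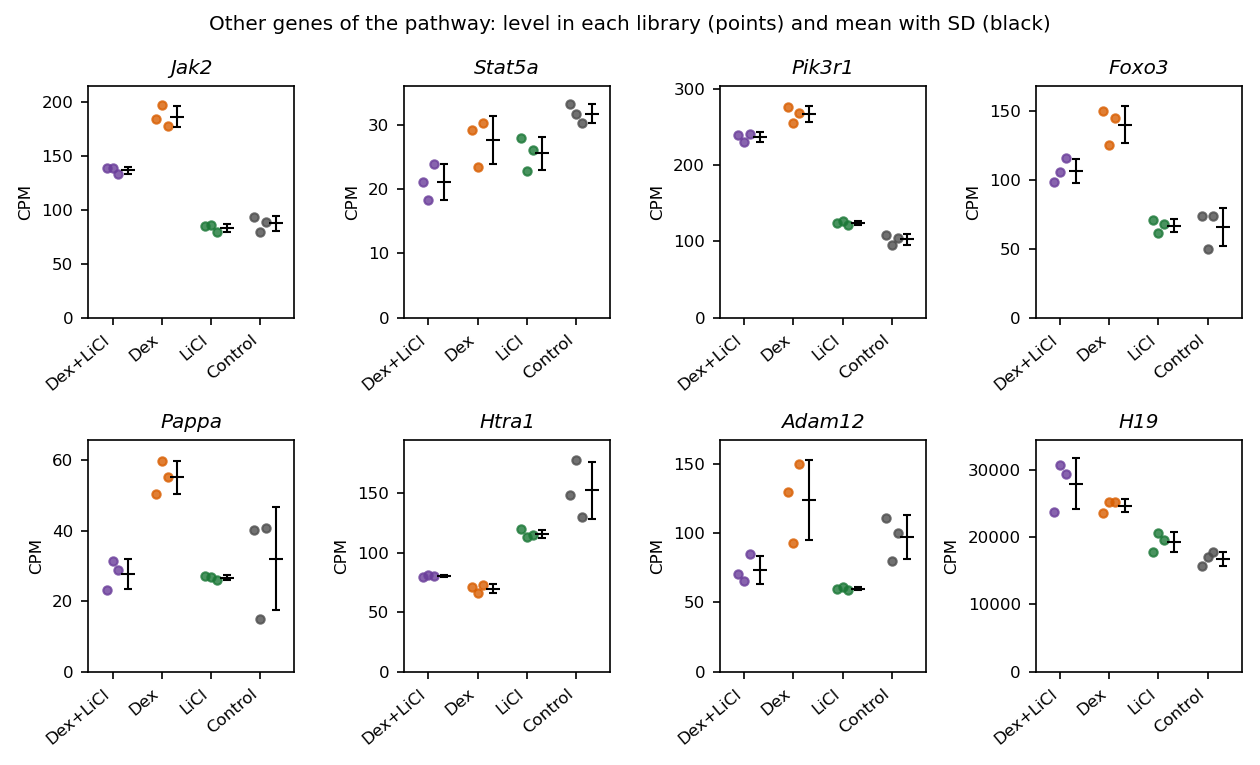
CPM (linear axes from 0) of Jak2, Stat5a, Pik3r1, Foxo3, Pappa, Htra1, Adam12 and H19 in each library, with the 3 pools of each group as points and the mean with its SD in black. Jak2, Pik3r1, Foxo3 and H19 are higher in all pools with dexamethasone than in all pools without it, and Htra1 is lower.

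The genes whose levels followed each called gene most closely over the 12 libraries were found by the root mean square (RMS) difference of log2 CPM after the mean of each gene was removed. The nearest to Ghr was Axl, a receptor tyrosine kinase gene, at an RMS difference of 0.0907 over a range of 1.36 log2 units in Ghr. Axl was also called in all 5 comparisons, with log2 fold changes of 0.74 with dexamethasone and -0.34 with LiCl against control. Igf2 was followed by Pnpla7 (0.0684) and by Sparc (0.0691), the matrix protein osteonectin. Igfbp3 was followed by Ucma, a cartilage matrix protein gene (0.115). The genes nearest to Igfbp5 were Map1b (0.0921) and the protease gene Adam12 (0.133). Igf1 was followed by Ankrd55 (0.0915), Igfbp2 by Ggta1p (0.170), Igfbp4 by Zbp1 (0.0967) and Igfbp6 by Tmem200b (0.160). These are descriptions over 12 libraries that share groups, and no test was made.

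Across the libraries total counts were 9055581 to 17872189 with both drugs, 9263078 to 11685463 with dexamethasone, 13866588 to 20644093 with LiCl and 10761816 to 21953446 in control. The 10 genes had between 69 and 270148 counts in a library. The chondrocyte marker Col2a1 was at 24428 to 53393 CPM, and the summed CPM of 11 chondrocyte markers overlapped between all groups. Single markers differed from control, with 1 higher and 0 lower with dexamethasone, beside 5.45% and 5.49% of all genes. With LiCl 0 were higher and 2 lower, beside 4.71% and 5.9%, and with both drugs 1 and 2, beside 10.8% and 11.8%. Col10a1 was at 1175 to 1405 CPM with LiCl and 2395 to 2862 CPM in control. Endothelial markers summed to 79.8 to 90.1 CPM with both drugs, 69.8 to 77.2 with dexamethasone, 166 to 175 with LiCl and 176 to 194 in control. Adipocyte markers summed to 36.6 to 51.0 CPM with both drugs, 46.5 to 60.7 with dexamethasone, 21.4 to 22.8 with LiCl and 46.6 to 65.5 in control. Of 4 tested, 2 were lower with dexamethasone, 4 with LiCl and 3 with both drugs than in control, beside 5.49%, 5.9% and 11.8% of all genes, and 0 were higher. Fabp4 was at 24.0 to 41.3 CPM with dexamethasone and 12.8 to 22.4 CPM in control, and Adipoq at 0.103 to 1.17 and 2.41 to 6.84 CPM. Markers of osteoblasts and of the perichondrium around the cartilage summed to 10739 to 13619 CPM with both drugs, 11245 to 16911 with dexamethasone, 12469 to 14027 with LiCl and 15783 to 19932 in control. Of 8 tested, 1 was higher and 3 lower with dexamethasone than in control, 0 and 1 with LiCl, and 1 and 3 with both drugs. The shares of all genes were 5.45% and 5.49%, 4.71% and 5.9%, and 10.8% and 11.8%. The part of these cells in the levels of the 10 genes was not tested. Control pool 2 was either the highest or the lowest control for all 10 genes (80.8% of all genes tested), highest for 6 and lowest for 4. Without it, Ghr, Igfbp3 and Igfbp5 of the 5 genes called with LiCl against control remained past the threshold. A p-value sets the difference between groups against the spread between pools within groups, estimated over all 12 libraries. Without a term for the replicate number, that spread includes differences between the numbers.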

How the data were processed

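RNA-seq counts of 12 libraries were used. The authors deposited unnormalized counts for each gene symbol. Before that step they had used Subread for alignment, Picard to take out duplicates and HTSeq for counting, and had summed technical replicates, and the loss of duplicates can cap the counts of abundant transcripts. For the genome, the submitters' processing notes list human builds although the libraries are from rat. The build behind the counts is therefore unsettled, and promoter windows come from RefSeq (GRCr8) by symbol, which matched 10 of 10 genes and 19073 of 30045 symbols.

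A gene was tested if 2 or more libraries reached 60 counts (12602 genes). One model with TMM scaling and no term but condition was fitted to all 12 libraries (edgeR 4.0.16, quasi-likelihood F-test, two-sided, R 4.3.3), with Benjamini-Hochberg adjustment over all genes tested. A call is an adjusted p under 0.05. The SE was derived from the test, as the size of edgeR's log2 fold change divided by the square root of its F statistic. CPM uses the library total times the TMM factor. Nearest genes used log2 of CPM plus 0.5. Python 3.11.15 (pandas 2.3.3, matplotlib 3.10.9) served for tables and plots, and the model fits were tested on simulated data.

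The genes, pathway lists and markers were chosen with earlier results of these data known. Named genes are the 10 genes, genes of each list past the threshold (at most 4 per list and comparison, by smallest adjusted p), defining markers, and the 3 nearest genes, of which the first or first 2 are given. One gene of the growth hormone signalling list is not reported here. Some others (Stat5b, Gh1, Irs4, Cish, Socs2, Akt2, Pik3r2, Igfbp7 and the markers Cd163, Cd68, Col10a1, Fabp4 and Adipoq) were named after their values were seen. Alternatives were RLE scaling, library totals, DESeq2 1.42.0, filterByExpr, no count filter, a 2-fold minimum, the replicate number as a block, only the groups compared, counts thinned to 9055581 per library, and each library left out.

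The labels number pools 1 to 3 in each group without saying what a number is. After group means were removed, same-numbered pools correlated at 0.131 to 0.509 in the 4 comparisons other than dexamethasone against control (0.0135 to 0.140). These ranges overlap, so the correlations do not settle whether the numbers pair the pools. Unless another fit is named, a call comes from the fit with condition only, also where the block gave a different result. The low correlations do not show that the pools of the remaining comparison were unpaired. The study describes repeated experiments, each with bones for every treatment, and elsewhere pools from single rats, and ties the numbers to neither. In these 4 comparisons the block value is printed where it changes a call of the 10 genes or of a pathway gene.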

Additional observations from a re-analysis of the deposited data

How the results depend on the processing

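Of 60 log2 fold changes (10 genes in 5 comparisons and the interaction), 0 changed sign where the value passed the threshold in either fit. RLE scaling and filterByExpr (15274 genes) changed no call. DESeq2 added Igf2 in 3 comparisons, and a fit of only the groups compared ended 3 calls (Igfbp4 with LiCl, Igfbp3 and Igfbp5 with both drugs against control). Library totals ended 1 call (Igf1 with dexamethasone added to LiCl) and added Igf2 with LiCl added to dexamethasone (adjusted p = 0.0486), and no count filter added Igf1r with dexamethasone (0.0214). With the replicate block, which also added that Igf1r call (0.0147), the called genes numbered 5 with dexamethasone, 5 with LiCl, 4 with LiCl added to dexamethasone, 3 with dexamethasone added to LiCl, 8 with both drugs against control and 0 for the interaction. In the 4 comparisons other than dexamethasone against control it changed no other call of the 10 genes or the pathway lists than those given in the report. In dexamethasone against control, where the correlations of same-numbered pools were low, it took the downstream list from 4 higher and 2 lower to 7 and 3. It also added Pappa to the protease genes there (0.0376) and Igfbp7, as lower, to the other ligands and carriers (0.0282). A minimum of 2-fold left 1 called gene with dexamethasone, 0 with LiCl, 0 with LiCl added to dexamethasone, 1 with dexamethasone added to LiCl and 1 with both drugs against control, since few changes are that large.

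With each library left out in turn, the called genes numbered 4 to 5 with dexamethasone, 1 to 5 with LiCl, 2 to 3 with LiCl added to dexamethasone, 2 to 3 with dexamethasone added to LiCl and 5 to 7 with both drugs against control. Of 22 calls, 13 passed in all 12 such fits and 9 were ended by at least 1 library. Values near 0 changed sign, none of them called. Igf1 with LiCl added to dexamethasone was -0.0049, and 0.0036 with library totals, 0.0037 with no count filter and 0.0017 thinned. With the block Igfbp6 with LiCl added to dexamethasone was 0.0027 and the Igfbp5 interaction -0.0028. Over the fits with 1 library left out the ranges were, for dexamethasone against control, -0.0403 to 0.199 in Igf2r, -0.0232 to 0.262 in Igfbp3 and -0.0210 to 0.302 in Igfbp5. For LiCl against control they were -0.209 to 0.0271 in Igf2r and -0.0090 to 0.227 in Igfbp2. For LiCl added to dexamethasone they were -0.0412 to 0.0772 in Igf1, -0.0343 to 0.279 in Igfbp2 and -0.139 to 0.135 in Igfbp6. For dexamethasone added to LiCl they were -0.0774 to 0.159 in Igf1r, -0.207 to 0.0261 in Igf2r and -0.116 to 0.0372 in Igfbp4. For the interaction they were -0.135 to 0.0024 in Ghr, -0.0670 to 0.0685 in Igf2, -0.138 to 0.175 in Igfbp2 and -0.124 to 0.199 in Igfbp5. Fits with fewer libraries estimate the spread from fewer pools, and the cause of single changes was not tested. With 3 pools a group, the SE of a log2 fold change was 0.08 in Ghr and 0.18 in Igfbp6 with LiCl against control. Changes smaller than these cannot be told from the spread between pools, and larger ones could miss the threshold too. Igfbp6 with dexamethasone against control, at -0.43 (SE 0.18), had an adjusted p of 0.162 (edgeR).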

Other observations

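Irs4, an adaptor of the insulin and IGF receptors that most adult tissues hardly express, fell under the count minimum and so was not among the genes tested in the report. It was chosen after its values were seen. Its level was 2.18, 3.18 and 2.79 CPM with both drugs, 3.60, 4.34 and 4.24 CPM with dexamethasone, 0.285, 0.365 and 0.193 CPM with LiCl and 0.672, 0.185 and 0.702 CPM in control. These CPM rest on 20, 35 and 48 counts with both drugs, 35, 52 and 38 with dexamethasone, 4, 7 and 4 with LiCl and 15, 2 and 14 in control. All 6 pools with dexamethasone were above all 6 without it. With edgeR's own filter, which kept 15274 genes, the log2 fold change was 2.82 with dexamethasone against control (SE 0.33, adjusted p = 2.2e-05), 3.26 with dexamethasone added to LiCl (SE 0.38, adjusted p = 2.6e-05) and 2.25 with both drugs against control (SE 0.34, adjusted p = 1.6e-04). It was not called with LiCl (-1.01, SE 0.46, adjusted p = 0.182) or with LiCl added to dexamethasone (-0.57, SE 0.29, adjusted p = 0.271).

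Cish and Socs2 encode feedback inhibitors that growth hormone is known to induce through STAT5, and both were under the count minimum. They were chosen after their values were seen. Cish was at 2.07, 1.18 and 1.28 CPM with both drugs, 1.34, 1.67 and 1.78 CPM with dexamethasone, 2.21, 2.51 and 2.31 CPM with LiCl and 2.51, 4.99 and 2.01 CPM in control. In the same edgeR fit Cish was lower with both drugs than in control (-1.04, SE 0.34, adjusted p = 0.0389) and was not called with dexamethasone (-0.93, SE 0.35, adjusted p = 0.110). Socs2 was at 0.979, 1.82 and 1.34 CPM with both drugs, 2.37, 1.25 and 1.56 CPM with dexamethasone, 2.49, 1.72 and 2.12 CPM with LiCl and 2.06, 2.77 and 2.11 CPM in control, and it was called in none of these comparisons (adjusted p = 0.456 with dexamethasone and 0.116 with both drugs against control, edgeR). Both genes had at most 56 counts in a library.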
